A study of Homo sapiens with 23 samples.

Results

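LSD1 regions found in LSD1+8a knockdown cells and in none of the other peak lists of the series are described here. The peaks of 5 ChIP-seq lists were pooled, peaks that shared at least 1 bp were merged into regions, and a region was kept when every peak in it came from the list of LSD1 in knockdown cells at day 0. Of 32188 regions in all, 10163 held a peak of that list and 2012 of these held no other peak. Every one of the 2012 regions was a single peak. The same was true of the 4788 regions with only LSD1 of control cells at day 0 and the 10795 with only that of day 3. The members were chosen from the presence or absence of peaks in the same lists whose peak values are given below, so these values describe the regions and were not tested.

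The cells were SH-SY5Y, a human neuroblastoma line that acquires neuronal features in culture. The list of interest is LSD1 ChIP in cells infected with an shRNA against LSD1+8a at B0, day 0 of treatment with brain-derived neurotrophic factor (BDNF). The lists it was set against all came from cells infected with a control shRNA. They were LSD1 at day 0 (B0), LSD1 at day 3 (B3), LSD1+8a at day 3 and SVIL at day 3. Per the labels' protocols, differentiation began with retinoic acid at 10 µM over 4 days, and BDNF at 50 ng/mL followed for 3 days. Each group was 1 library of 1 cell line, with no replicate and with no record here of how far the target was depleted. No test between conditions was therefore possible. Intervals in parentheses are exact (Clopper-Pearson) 95% binomial intervals and cover counting error only.

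LSD1 (KDM1A) is a flavin-dependent demethylase of lysines on histone H3 that works in complexes with the CoREST proteins and histone deacetylases, mainly at promoters and enhancers. In neurons, inclusion of a short additional exon yields the isoform LSD1+8a. SVIL (supervillin), named in the series design as this isoform's cofactor, is known to bind actin. A ChIP-seq peak is a stretch of the genome where fragments bound by the antibody pile up above a control, and the tags of a peak are the reads counted in it.

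The list of LSD1 in knockdown cells held 10248 peaks. Control cells had 16882 LSD1 peaks at day 0 and 20748 at day 3, and the lists of LSD1+8a and SVIL held 3378 and 1452. The depth of the libraries is unknown, and the file headers do not say which input library or which caller settings lay behind each list. More or fewer reads in 1 library could therefore not be told apart from more or less binding. All positions are in hg19, the only human build that the submitters' processing notes name. No genome or gene annotation of that build was used here, so regions carry no gene names and no sequence is shown.

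Of the regions with a knockdown LSD1 peak, 19.8% lay in no other list (19.03 to 20.6). The knockdown-only regions were thus the third most frequent kind. They came after 2774 regions shared with LSD1 of control cells at day 0 alone (27.3%) and 2498 regions present in all 3 LSD1 lists but not in those of LSD1+8a or SVIL (24.6%). A further 781 knockdown regions (7.68%) were shared with LSD1 at day 3 alone, 132 (1.30%) with LSD1+8a alone and 11 (0.108%) with SVIL alone. The mirror set was larger. In control cells at day 0, 4788 of 16655 LSD1 regions (28.7%) lay in no other list, and at day 3, 10795 of 20693 (52.2%). Each list was set against a different group of other lists, and the lists differ in length, so these shares are not on equal terms. Counted as peaks, the shares were 19.6% in the knockdown list, 28.4% in control cells at day 0 and 52% at day 3. Set against LSD1 in control cells at day 0 alone, 3139 knockdown regions (30.8%) had no partner.

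The knockdown-only regions were short and held few tags. They had a median of 17 tags (quartiles 12 and 24, range 10 to 87), against 32 tags in the other 8236 knockdown peaks (quartiles 22 and 45, range 10 to 2521). Their median length was 575 bp (range 262 to 1795), against 808 bp in the other peaks (range 274 to 3594). The ranges overlapped throughout, and the lowest tag count was the same in both. Fold enrichment, the authors' ratio of a peak to its background, differed little in the middle, with a median of 8.94 in knockdown-only regions and 9.19 in the other peaks. Its upper ends differed, with 23.4 as the highest fold in a knockdown-only region and 86.5 in another knockdown peak. Together the 2012 regions covered 15.3% of the length of the knockdown list and held 11.3% of the tags in its peaks.

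**Figure D1:**
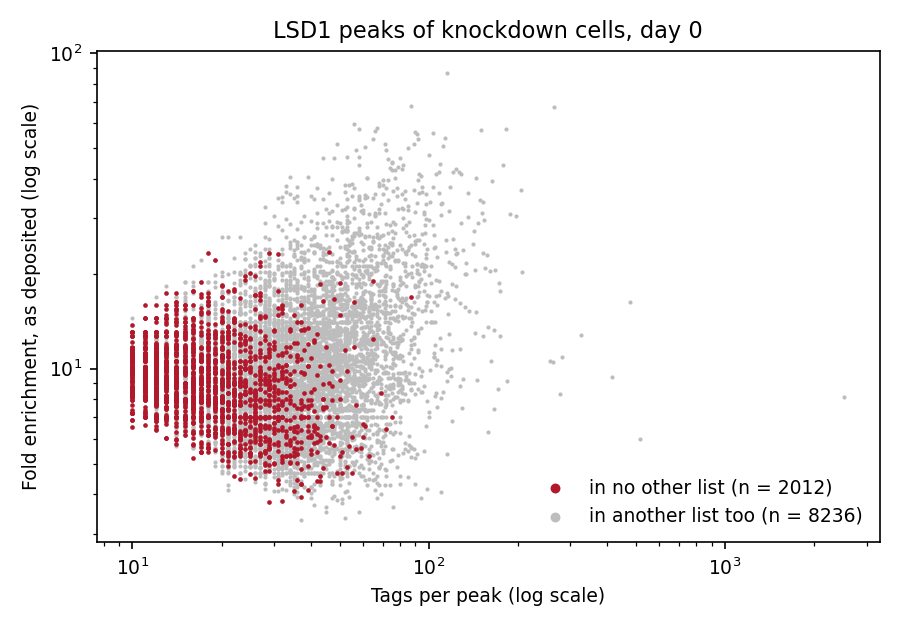
Tags per peak (x axis, log scale) and deposited fold enrichment (y axis, log scale) of each LSD1 peak of knockdown cells at day 0, with the 2012 peaks in no other list in red and the 8236 peaks also in another list in grey. The red points lie between 10 and 87 tags and none exceeds a fold of 23.4, while the grey points extend to 2521 tags and a fold of 86.5.

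The fewer tags a knockdown peak had, the more often it stood alone. Of the 280 peaks with 10 tags, 213 (76.1%, 70.6 to 80.9) were in no other list. The share was 46.7% (40.6 to 52.8) of 270 peaks with 14 tags and 27.9% (23.05 to 33.2) of 319 peaks with 20 tags. Among the 990 peaks with at least 60 tags it was 1.01% (0.485 to 1.85), which is 10 regions. Length ran the same way. The share was 57.03% in the shortest decile of peaks, up to 485 bp, and 5.46% in the longest, from 1182 bp. Fold did not. The share was 14.7% in the lowest fold decile, 27.6% in the fifth, and 4.39% in the highest.

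The share also fell with the score, a deposited value per peak whose column name was lost and whose unit is not stated. Of the peaks in the lowest decile of the knockdown list by score, 42.1% (39.04 to 45.2) were in no other list, and of those in the highest decile 1.17% (0.606 to 2.04). In the mirror list, LSD1 in control cells at day 0, these shares were 53.9% (51.4 to 56.2) and 2.31% (1.65 to 3.14). The share was lower in the knockdown list than in that control list in each of the 10 deciles, and the lists differ in length. No knockdown-only region ranked among the 100 strongest knockdown peaks, 2 ranked among the first 500 and 12 among the first 1000. In control cells, the best day 0 region without a partner ranked 5 in its list and the best day 3 region ranked 32. The best knockdown-only region ranked 310.

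**Figure D2:**
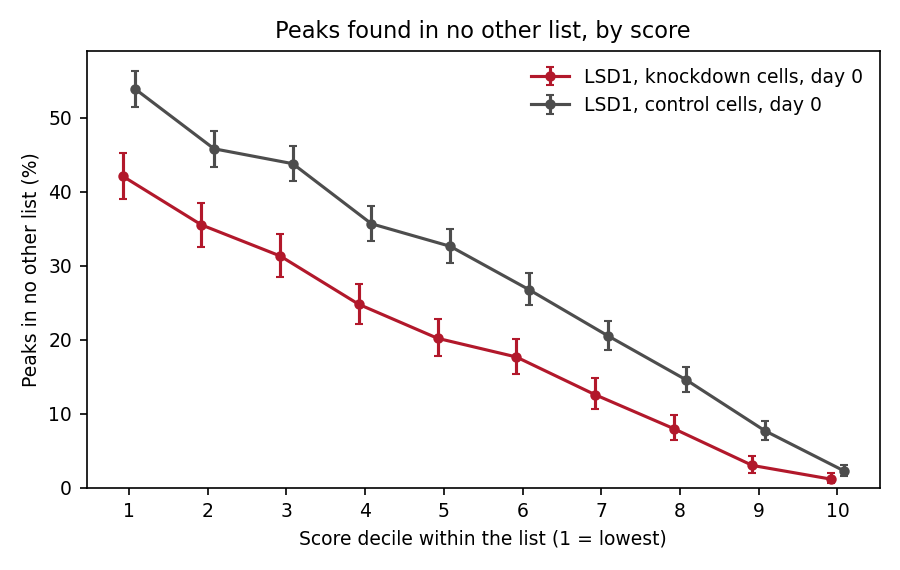
Share of peaks that lie in no other list (y axis, percent) by score decile within each list (x axis, 1 the lowest), for LSD1 of knockdown cells (red) and of control cells (grey) at day 0; bars are exact 95% binomial intervals. Both lines fall with the score, from 42.1% to 1.17% in the knockdown list and from 53.9% to 2.31% in the control list.

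At equal score, knockdown-only peaks still differed from the other peaks of their list. Their median tag count was below that of the other knockdown peaks in 10 of 10 score deciles, and their median length in 9 of 10. Their median fold was higher in 9 of 10. How the score was derived from tags and background is not stated, so at equal score these differences may not be separate observations. In the lowest decile the medians were 12 tags, 468 bp and a fold of 8.34 for knockdown-only peaks, against 18 tags, 628 bp and a fold of 7.03 for the others. In the fifth decile they were 20 tags, 670 bp and a fold of 9.03, against 26 tags, 769 bp and a fold of 7.91. The highest decile held only 12 knockdown-only peaks, which were longer (median 1051 bp) than the others (983 bp) and had a lower fold (16.5, against 19.1). Lone peaks of the control LSD1 lists showed the same pattern, with fewer tags, shorter length and higher fold than shared peaks in 10 of 10 score deciles at day 0 and at day 3. In the lowest decile of the day 0 control list the medians were 13 tags, 555 bp and a fold of 8.23 for lone peaks, against 19 tags, 721 bp and a fold of 7.11 for shared ones. Peaks shared only with LSD1 at day 3 lay close to the knockdown-only peaks, with medians of 19 tags, 645 bp and a fold of 8.51. Peaks shared only with control cells at day 0 had medians of 33 tags, 814 bp and a fold of 9.63.

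The strongest knockdown-only region by score, and also by tags, was chrX:77358961-77360159, with 87 tags and a fold of 16.9. The nearest peak of another list lay 123 kb away. The second, chr2:3382989-3384151, had 65 tags and a fold of 18.97 and lay 539 bp from an LSD1+8a peak of day 3. The third, chr17:36829659-36830681, had 43 tags and a fold of 18.5 and lay 460 bp from an LSD1 peak of control cells at day 0. The strongest regions thus included some next to a peak of another list and some far from any.

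The rest of the 10 highest scores held between 37 and 65 tags. They lay on chromosome 17 (chr17:19280811-19282046 and chr17:77005482-77006517), chromosome 1 (chr1:150293625-150294442 and chr1:200378809-200379752), chromosome X (chrX:48455741-48456805), chromosome 8 (chr8:94766789-94767699) and chromosome 6 (chr6:116574581-116575698). Their distances to the nearest peak of another list ran from 8.28 kb to 29.8 kb. The first of the chromosome 1 regions had the highest fold of all knockdown-only regions, 23.4.

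Regions with many tags could have a low fold. After the chromosome X region, the most tags were in chr17:76878604-76880354 (75 tags, fold 7.03), chr7:134142958-134144309 (72 tags, fold 6.44) and chr1:173793112-173794398 (69 tags, fold 8.36). Their folds lay below the median of the knockdown-only regions. The longest region, chr1:32644763-32646557, spanned 1795 bp with 61 tags at a fold of 6.56. The other 4 of the 5 highest folds stood in regions with 18 to 31 tags, on chromosome 22 (chr22:41600810-41601544, fold 23.2), chromosome 14 (chr14:59931902-59932384, fold 23.2), chromosome 9 (chr9:132175720-132176383, fold 23.1) and chromosome 2 (chr2:197664190-197664679, fold 22.04). At the other end, the 3 lowest scores, 50.01 and 50.02, belonged to regions with 10 to 15 tags on chromosomes 22, 21 and 11. They lay at the lower limit of the list, which begins at a score of 50.

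Peaks just inside and just outside the 1 bp limit had similar values. Among the knockdown-only regions, 30 lay within 100 bp of a peak of another list. They had a median of 16 tags and a length of 617 bp. On the other side, 23 knockdown peaks overlapped another list by at most 100 bp, with a median of 15 tags and a length of 581 bp. The nearest knockdown-only region, chr4:56915623-56916242 (23 tags), was separated from an LSD1 peak of control cells at day 3 by 3 bp. The next 4 lay 12 to 23 bp from a control LSD1 peak and held 10 to 14 tags. The smallest overlap among the peaks not counted as knockdown-only was 11 bp, in chr4:129732939-129733538 (18 tags). Most shared peaks were far from the limit, since the median shared knockdown peak lay wholly (100%) inside a peak of another list.

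Few knockdown-only regions were near misses. Of the 2012, 187 (9.29%, 8.06 to 10.6) lay within 1 kb of a peak of another list, 633 (31.5%, 29.4 to 33.5) within 10 kb and 1813 (90.1%, 88.7 to 91.4) within 100 kb. The 8151 other knockdown regions were measured to the nearest peak that they did not overlap. For them these shares were 7.93% (7.35 to 8.53), 33.6% (32.6 to 34.6) and 92.4% (91.8 to 93.0). The intervals of the groups overlapped at 1 kb and at 10 kb, and at 100 kb the knockdown-only share was the lower one. Another knockdown peak stood within 1 kb of 5.47% (4.51 to 6.55) of knockdown-only regions and of 2.97% (2.61 to 3.36) of the others. These shares are not quite the same measure. Some of the other regions joined several knockdown peaks, and peaks inside a region were not counted as neighbours. Of the 187 near misses, 113 had a day 0 control LSD1 peak as their nearest neighbour and 66 a day 3 LSD1 peak. Over all 2012 regions the nearest neighbour was a day 3 LSD1 peak in 50.2%, a day 0 control LSD1 peak in 43.6%, an LSD1+8a peak in 4.87% and a SVIL peak in 1.24%. These lists made up 48.9%, 39.8%, 7.96% and 3.42% of the peaks that could be nearest.

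Since the shRNA was directed at LSD1+8a, the distance to LSD1+8a peaks was examined separately. These peaks come from control cells at day 3 and the knockdown list from day 0. Of the knockdown-only regions, 78 (3.88%, 3.08 to 4.81) lay within 10 kb of an LSD1+8a peak and 660 (32.8%, 30.8 to 34.9) within 100 kb. Of the 6053 regions shared by knockdown cells and other LSD1 lists, and likewise without an LSD1+8a or SVIL peak of their own, 4.96% lay within 10 kb and 34.9% within 100 kb. When those regions were weighted to the same score deciles, the shares were 4.83% and 32.4%. At equal score the knockdown-only share was thus lower at 10 kb and slightly higher at 100 kb, and it was the higher one in 3 and in 5 of 10 deciles. For SVIL peaks within 100 kb the share was 12.8% (11.3 to 14.3) of knockdown-only regions and 15.8% of the same comparison regions at equal score, and the knockdown-only share was the higher one in 3 of 10 deciles.

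**Figure D3:**
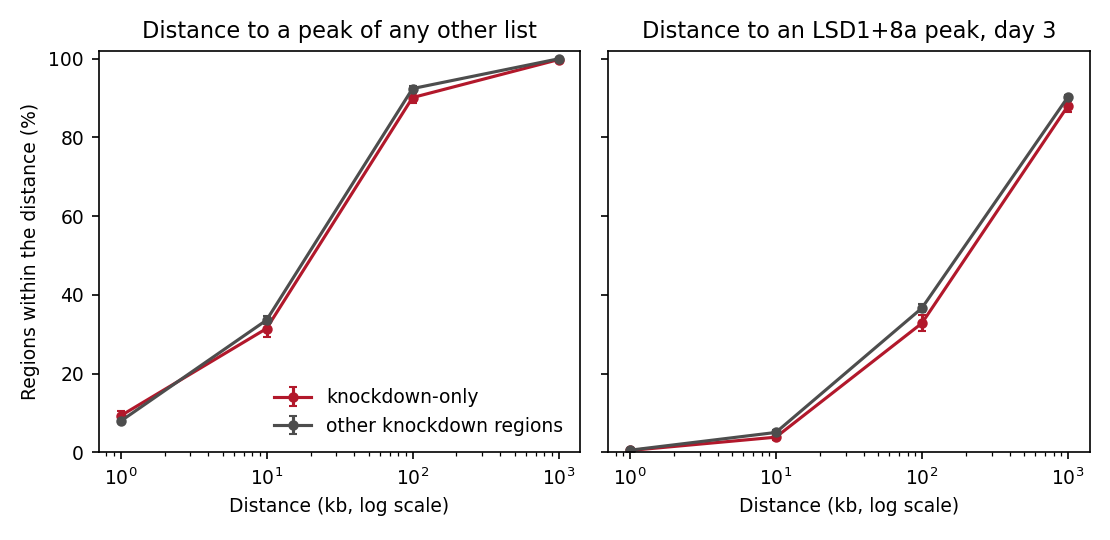
Share of regions (y axis, percent) with a peak of any other list (left) or an LSD1+8a peak of day 3 (right) within 1, 10, 100 and 1000 kb (x axis, log scale), for the 2012 knockdown-only regions (red) and the 8151 other knockdown regions measured to peaks they do not overlap (grey); bars are exact 95% binomial intervals. At 100 kb the left curves stand at 90.1% and 92.4% and the right curves at 32.8% and 36.6%.

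Knockdown-only regions rarely stood together. When regions with gaps of at most 25 kb were joined, 1824 (90.7%) stood alone, 172 formed 86 pairs, 12 formed 4 runs of 3, and 4 formed 1 run. That run, chr11:62366629-62433291, spanned 66.7 kb and its 4 regions held 17 to 33 tags. It also contained 2 other knockdown peaks, 2 LSD1 peaks of control cells at day 0 and 1 of day 3. A run of 3 on chromosome 5 (chr5:6448066-6469469, 21.4 kb, 11 to 20 tags) and one on chromosome 1 (chr1:6453185-6483818, 30.6 kb, 10 to 16 tags) contained no peak of any other list. A run of 3 on chromosome 19 (chr19:11449936-11466081, 16.1 kb, 11 to 28 tags) contained 1 control LSD1 peak of each day.

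Chromosome X stood apart from the other chromosomes. Of its 184 knockdown LSD1 regions, 73 (39.7%, 32.6 to 47.1) were in no other list, against 19.4% (18.7 to 20.2) of the 9979 regions elsewhere. Chromosome 22 came next, with 49 of 170 (28.8%, 22.1 to 36.3). The other 21 chromosomes with at least 50 knockdown regions ranged only from 15.6% on chromosome 16 to 22.4% on chromosome 4. The intervals of 20 of the 23 chromosomes contained the share of the whole list, and the exceptions were X, 22 and 16. Chromosome 16 missed it narrowly (12.2 to 19.6). The intervals make no allowance for the comparison of 23 chromosomes. The number of knockdown-only regions per chromosome ran from 15 on chromosome 21 to 198 on chromosome 1.

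**Figure D4:**
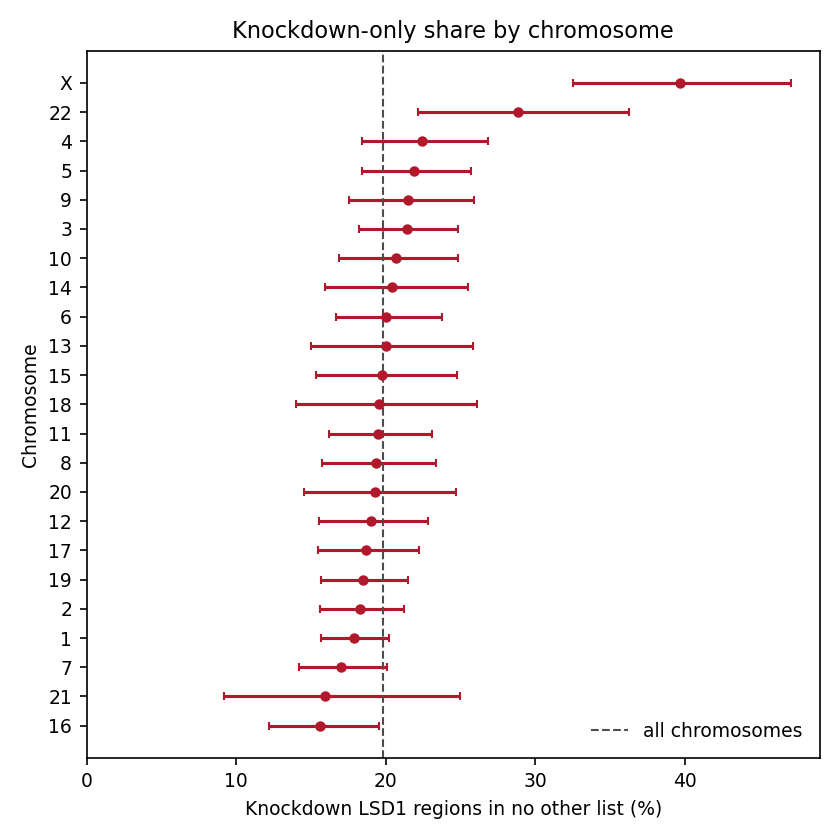
Share of the knockdown LSD1 regions of each chromosome that lie in no other list (x axis, percent), ordered by share, with exact 95% binomial intervals; the dashed line is the share over all chromosomes, 19.8%. Chromosome X (39.7%) and chromosome 22 (28.8%) lie to the right of the line with their whole intervals, and chromosome 16 (15.6%) to its left.

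On chromosome X the 73 knockdown-only regions held 10 to 87 tags (median 14) and were spread over 48 windows of 1 Mb, with at most 4 in one window. The other 111 knockdown peaks of X held 10 to 117 tags (median 26). Knockdown peaks of the other chromosomes with the same mix of scores would have been alone in 21.2% of cases, and with the same mix of tag counts in 28.4%. The share on X was higher in 9 of 10 score deciles and in 9 of 10 tag deciles. Both the proximal part of X, below its widest gap between peaks (38.7% of 111 regions), and the distal part (41.1% of 73) showed it. Among knockdown peaks with at least 20 tags, a limit set after the data were seen, the share on X was 21.5% (14.1 to 30.5), against 10.1% (9.47 to 10.9) on chromosomes 1 to 21.

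The high share on X was not limited to the knockdown list. Of the X regions of LSD1 in control cells at day 0, 99 of 244 (40.6%, 34.4 to 47.02) lay in no other list, against 28.6% elsewhere. Control peaks elsewhere with the same scores would have been alone in 31.3% of cases, and with the same tag counts in 38.2%, with X higher in 8 and in 4 of 10 deciles. At day 3 the lone X regions were 159 of 243 (65.4%, 59.1 to 71.4), against 52.01% elsewhere. Day 3 peaks elsewhere with the same scores would have been alone in 55.9% of cases, and with the same tag counts in 62.9%. X was the higher one in 9 and in 6 of 10 deciles. For LSD1+8a the X share was 8 of 41 (19.5%, 8.82 to 34.9), against 15.3% elsewhere, a value inside the interval for X. For chromosome 22 the share was 30.3% (24.6 to 36.5) in the day 0 control list, against 28.7% elsewhere, and 52.5% (45.97 to 59.01) at day 3, against 52.2% elsewhere. Whether the share on 22 in the knockdown list differs from that in the control list was not tested. At equal scores 19.1% of knockdown peaks elsewhere were alone, and at equal tag counts 24.2%, with the share on 22 higher in 7 and in 4 of 10 deciles. Its 49 knockdown-only regions held 10 to 44 tags (median 15), and 7 of them lay between 41 and 42 Mb, where the knockdown list had 11 peaks, the day 0 control list 6 and the day 3 LSD1 list 2. Another 7 lay between 50 and 51 Mb, where these lists had 13, 7 and 4 peaks.

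Chromosome 19, the most gene-dense human chromosome, held 131 knockdown-only regions. That was 6.51% (5.47 to 7.68) of them, against 4.99% (4.39 to 5.65) of the regions listed for control cells at day 0 alone and 1.29% (1.08 to 1.52) of those listed at day 3 alone. The lists as a whole differed in the same order, with 6.99% of all knockdown LSD1 regions on chromosome 19, 5.23% of those of control cells at day 0 and 2.33% at day 3. Within chromosome 19, 18.5% (15.7 to 21.5) of the knockdown regions were in no other list, close to the whole list. Peaks elsewhere with the same scores would have given 14.9%, and chromosome 19 was higher in 7 of 10 score deciles. In control cells at day 0 the lone share on chromosome 19 was 27.4%, against 22.1% elsewhere at the same scores and likewise higher in 7 of 10 deciles. At day 3 it was 28.8%, against 54.3%, and higher in 0 of 10.

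Across parts of chromosomes the share of knockdown-only regions tended to be lower where the typical peak held more tags, but not within every chromosome. Each chromosome was divided at its widest gap between peaks of all lists into a proximal part (coordinates below the gap) and a distal part (above it). The distal part of chromosome 1 had the lowest share of the 34 parts with at least 100 knockdown regions, 13.98% (11.2 to 17.1), while its proximal part had 21.9% (18.5 to 25.6). The median knockdown peak held 40 tags in the distal part and 27 in the proximal part. On chromosome 2 the proximal part had 15.1% (11.6 to 19.3) at a median of 35 tags, and the distal part 20.98% (17.1 to 25.2) at 26 tags. Chromosome 7 had 16.1% in its distal part, at 37 tags, and 18.9% in its proximal part, at 34 tags. Chromosome 17 went the other way, with 20.2% in its distal part, at 36 tags, and 14.7% in its proximal part, at 33 tags, and so did chromosome 13, with 22.6% in its proximal part, at 25.5 tags, and 17.6% in its distal part, at 22 tags. Of the 12 chromosomes with both parts large enough, the part with more tags had the lower share in 7 and the higher share in 5. The day 0 control list showed a like order of medians, with 39 and 24 tags on the distal and proximal parts of chromosome 1 and 32 and 22 on the proximal and distal parts of chromosome 2.

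Median scores hardly differed between the parts of chromosome 1, with 79.9 in the distal and 82.3 in the proximal one. Over the 34 parts the share and the median tags had a Pearson r of -0.47 and a Spearman rho of -0.56. Without chromosome X these were -0.54 and -0.53 over 33 parts. All parts share 1 library, and a part's median includes the knockdown-only peaks themselves, so these figures only describe it. The part played by the number of tags per peak in the share was not tested.

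**Figure D5:**
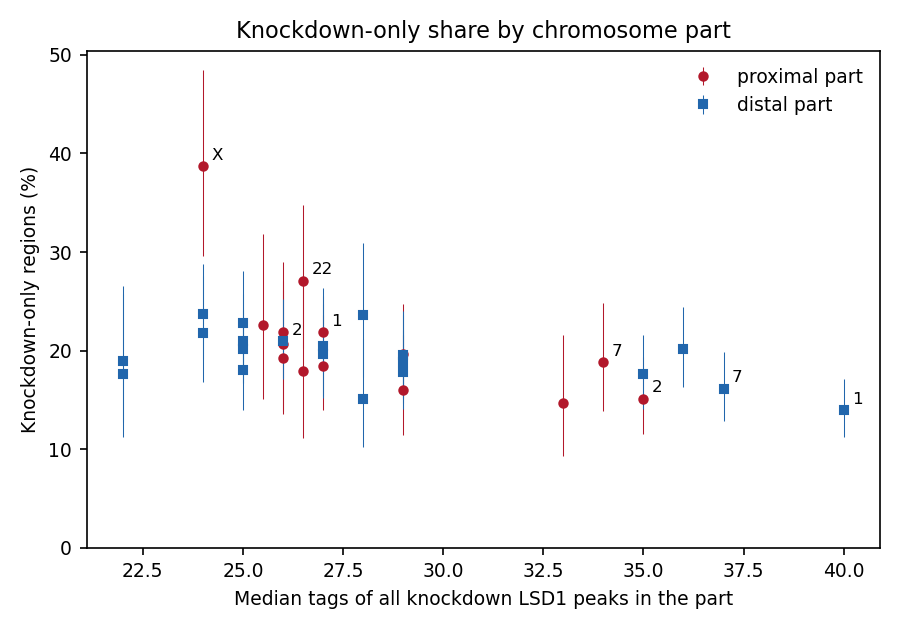
Share of knockdown LSD1 regions in no other list (y axis, percent, with exact 95% binomial intervals) against the median tags of all knockdown LSD1 peaks (x axis) in each of 34 chromosome parts with at least 100 such regions, with proximal parts as circles and distal parts as squares; parts of chromosomes 1, 2, 7, 22 and X are labelled. The distal part of chromosome 1 lies lowest, at 13.98% and 40 tags, and the proximal part of X highest, at 38.7% and 24 tags.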

How the data were processed

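Of the 14 ChIP samples, 5 had a peak list that was used here. Each list was matched to its sample through the sample's title. The submitters' processing notes name the tools CASAVA and Bowtie 1.0.0, with hg19 and mm9 as builds. The caller, its threshold and each list's input were not given in the sources used here. Tags per peak are deposited whole-number counts, not normalized. The deposited fold enrichment is the authors' ratio, and the deposited score lost its column name and has no stated unit. Fragments were 300 to 600 bp, which limits how finely a position is placed, and no source used here says whether PCR duplicates were taken out.

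Peaks were merged, and distances taken between edges, in Python 3.11.15 with pandas 2.3.3, and intervals in SciPy 1.17.1; the code was checked on simulated regions. Deciles were formed within each list. Comparisons at equal score or tags weight the other peaks to the deciles of those in question. The series has 23 samples, of which 5 peak lists were used. The members, lists and tests were chosen with earlier results of these data known. Named regions are the 10 knockdown-only regions with the highest scores and with the most tags, the 5 highest folds, the 3 longest, the 3 lowest scores, the 5 nearest to another list and the 3 largest runs; the text gives the first of each kind. Gene context, promoter shares and motifs were planned and not run, because no genome of hg19 was used here.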

Additional observations from a re-analysis of the deposited data

How the results depend on the processing

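With 10 alternatives for 6 values, 31 values stayed within 1.5 times the count or within the 95% interval and 29 did not. The 2012 regions (19.8%) became 435 (8.52%) with the upper 50% of the knockdown list by score. They became 1150 (22.5%) with the upper 50% of every list. With the lowest SVIL score, 71.7, applied to all lists, they were 1230 (20.5%), a lower count at a similar share. Against control LSD1 of day 0 alone they were 3139 (30.8%). With at least 20 tags, a setting added after the data were seen, they were 785 (10.3%). The percentage was 27.05% with a reciprocal overlap of 50%, 18.1% with edges up to 1 kb apart counted as shared, and 21.3% against the 2 control LSD1 lists.

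The share on chromosome X was 21.25% in the upper 50% of the knockdown list by score and 21.5% with at least 20 tags. On chromosome 22 these were 10.99% and 12.96%. Both settings cut the knockdown list alone. Where every list was cut, X had 40% in the upper 50% by score and 38.2% with the lowest SVIL score. Chromosome 22 then had 24.2% and 28.04%. The share on chromosomes 1 to 21 was 26.7% with the reciprocal overlap, 17.6% with edges up to 1 kb, 8.27% in the upper 50% of the knockdown list, 22.2% in that of every list, 30.4% against day 0 control LSD1 alone, 20.7% against the 2 control LSD1 lists and 10.1% with at least 20 tags. X lay above chromosomes 1 to 21 in 11 of 11 settings, by 1.45 to 2.57 times. Chromosome 22 did so in 11 of 11, by 1.09 to 1.495 times. The settings re-cut the same lists, and leaving out Y repeated the main values. In several settings the interval for 22 contained the share on chromosomes 1 to 21. It did so in the upper 50% of the knockdown list (5.40 to 19.3) and of every list (15.8 to 34.3). The same held with the lowest SVIL score (19.8 to 37.5) and against day 0 control LSD1 alone (28.7 to 43.6). With at least 20 tags it was 7.27 to 20.8.

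The share within 10 kb of another list was 31.5%. It was 50.3% with the reciprocal overlap, 24.4% with edges up to 1 kb, 17.04% in the upper 50% of every list, 21.4% with the common lowest score, 23.4% against day 0 control LSD1 alone and 34.8% with at least 20 tags. With the reciprocal overlap, peaks that overlapped another list below the limit became members and were counted at distance 0. With edges up to 1 kb, members within 1 kb of another list left the set. Both of these shares thus moved by the setting itself. Fewer peaks enter where lists or scores are restricted. No paired analysis was possible because each group has 1 library. Depth is unknown and limits what the count of lone peaks can say.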

Other observations

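The 5 knockdown-only regions farthest from any peak of another list were picked after their values were seen. They lay on chromosome X (chrX:90689635-90690202, 17 tags, 3527 kb away, and chrX:80065410-80065861, 12 tags, 2830 kb), chromosome 2 (chr2:35307302-35307741, 10 tags, 1409 kb, and chr2:90449517-90449954, 13 tags, 1310 kb) and chromosome 14 (chr14:98444257-98444818, 20 tags, 1180 kb). Of the 2012 regions, 199 lay more than 100 kb from any other list.

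Counted in windows of 1 Mb, knockdown-only regions occupied 1236 windows, of which 777 held 1 region and 34 held at least 5. The fullest was the window from 79 to 80 Mb of chromosome 17, with 8 (exact Poisson interval 3.45 to 15.8) among 19 knockdown LSD1 peaks, where LSD1 of control cells had 21 peaks at day 0 and 15 at day 3. On chromosome 2 the window from 85 to 86 Mb held 7 (2.81 to 14.4) among 13 knockdown peaks, where LSD1 of control cells had 15 and 14. Windows with 7 also lay on chromosome 22, as given above, and on chromosome 19. On chromosome 19 they began at 11, 36 and 49 Mb, among 21, 24 and 30 knockdown peaks. These windows were picked as the fullest, which the Poisson intervals do not allow for.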
